A study of Mus musculus with 18 samples.

Results

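A set of 10 enzymes and metal-binding proteins that handle peroxide, superoxide and free metal were followed through adult life in mouse calf muscle. They were the glutathione peroxidases Gpx1, Gpx3 and Gpx4, the glutathione transferases Gsta4 and Gstm1, the metallothioneins Mt1 and Mt2, the superoxide dismutases Sod1 and Sod2, and catalase, Cat. Each gene was represented by the probesets annotated to its symbol alone, and by the brightest of these where there were several. All 10 genes were measured, out of 13255 symbols with a probeset of their own. Only Sod1 had 2 such probesets.

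Whole gastrocnemius of both legs came from male mice of the C57BL/6 strain aged 2, 11 or 25 months, with 6 biological replicates and so 6 arrays per age. The labels name no altered gene and no substrain, and give treatment as not applicable. The ages are called young, adult and aged in the series title. Messenger levels were read on Affymetrix whole-transcript arrays as intensity, the brightness of a probeset, and are given below as log2 intensity.

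Superoxide that leaks from respiration is turned into hydrogen peroxide by the superoxide dismutases, and catalase and the glutathione peroxidases then reduce the peroxide to water, the latter with glutathione as the electron donor. Glutathione transferases join glutathione to reactive aldehydes and foreign compounds, and several of them are targets of the transcription factor Nrf2 (Nfe2l2) acting at antioxidant response elements. Metallothioneins are small cysteine-rich proteins that bind zinc and copper, and their genes are induced by metal through Mtf1 at metal response elements and by glucocorticoids; in muscle they are known to rise in wasting.

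The start regions of 4 members are shown because Gpx3 and Gstm1 were among the members that were higher after 2 months, and Mt1 and Mt2 were not. Each window holds 250 bases before and 50 bases after a RefSeq start, in the gene's own direction, and is credited to RefSeq on build GRCm38.p6. Capitals mark matches, on either strand, to TGCNCNC, taken here as the metal response core, or TGACNNNGC, taken as the antioxidant response core. N is any base, so a pattern may be looser than the element itself. The Gpx3 window lies at chr11:54902604-54902903 on the plus strand, the Gstm1 window at chr3:108017924-108018223 on the minus strand, the Mt1 window at chr8:94178839-94179138 on the plus strand and the Mt2 window at chr8:94172368-94172667 on the plus strand.
Gpx3: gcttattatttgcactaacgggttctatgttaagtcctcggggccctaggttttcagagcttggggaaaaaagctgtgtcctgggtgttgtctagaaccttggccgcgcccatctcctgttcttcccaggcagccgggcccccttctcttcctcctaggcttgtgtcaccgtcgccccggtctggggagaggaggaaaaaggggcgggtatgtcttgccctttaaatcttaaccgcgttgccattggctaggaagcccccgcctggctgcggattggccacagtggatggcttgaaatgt
Gstm1: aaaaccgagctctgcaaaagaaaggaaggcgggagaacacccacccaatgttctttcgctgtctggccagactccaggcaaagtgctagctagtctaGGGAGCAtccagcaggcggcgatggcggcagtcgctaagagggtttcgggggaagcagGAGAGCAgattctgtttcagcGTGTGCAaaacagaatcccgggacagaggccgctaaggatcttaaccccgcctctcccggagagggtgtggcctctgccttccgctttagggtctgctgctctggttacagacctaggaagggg
Mt1: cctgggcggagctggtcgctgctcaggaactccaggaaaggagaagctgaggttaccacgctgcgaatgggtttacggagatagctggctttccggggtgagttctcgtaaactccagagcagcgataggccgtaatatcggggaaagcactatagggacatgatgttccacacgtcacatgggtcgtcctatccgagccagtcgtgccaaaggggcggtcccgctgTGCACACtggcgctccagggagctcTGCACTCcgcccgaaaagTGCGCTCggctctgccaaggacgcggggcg
Mt2: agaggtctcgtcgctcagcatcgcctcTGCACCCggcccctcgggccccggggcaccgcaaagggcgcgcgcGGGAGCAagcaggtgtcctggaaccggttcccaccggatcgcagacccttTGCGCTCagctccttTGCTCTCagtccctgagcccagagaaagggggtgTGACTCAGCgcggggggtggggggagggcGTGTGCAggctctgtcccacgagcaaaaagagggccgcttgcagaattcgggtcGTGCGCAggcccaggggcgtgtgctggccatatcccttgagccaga

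The Gpx3 window held neither core. The Mt1 window held 3 metal cores, the first base of each at -23, 3 and 21, where 1 is the first base of the RefSeq transcript. The Mt2 window held 6 metal cores and 1 antioxidant core, the latter at -79. The printed Gstm1 window had 3 metal cores, all on the other strand, and a second Gstm1 window, from another start, also had 3, the last of them on the gene's own strand at -54. The 2 Gstm1 windows overlap, and the cores at -95 and -74 of the printed one are counted again in the other. Gpx4 had 4 windows, with 0, 1, 1 and 2 metal cores. Its windows with 1 core each overlap and share that core. A window was found for 9 of the 10 members, with 13 windows in all, and Gsta4 was not matched. Those of Gpx1, Gpx3, Sod2 and Cat had no match to either core, and the Sod1 window had 1 antioxidant core. Among 32851 windows of the same length, 51.0% held a metal core, 20.2% held at least 2 and 2.3% at least 4, while 12.4% held an antioxidant core. A match is a description of letters, and whether any match is a binding site was not examined. Bases outside these windows were not searched, so the counts do not compare whole promoters.

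Across the 18 arrays the median intensity lay between 97.6 and 101.1, and no arrays held identical values. The 10 measured fast-fibre and general muscle markers were bright at every age, with mean log2 intensities of 13.49, 13.44 and 13.46 at 2, 11 and 25 months. The signal range of an array, meaning the spread of its log2 intensities from the lower to the upper quartile, averaged 2.19 ± 0.11 in young, 2.33 ± 0.08 in adult and 2.26 ± 0.08 in aged muscle (SD, n = 6). Replicates 4 and 6 at 2 months and replicate 5 at 25 months had the narrowest. Replicate 4 at 11 months stood apart by 12 skin and hair genes, whose mean was 8.01 against 6.33 in the next array. In that array Mt1 and Mt2 were the highest of their age and Gpx1, Gpx3, Gpx4, Sod1, Sod2 and Cat the lowest. Without it the count of members called was 6 for 11 against 2 months, 0 for 25 against 11 months and 5 for 25 against 2 months, the same counts as with it.

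Between 2 and 11 months 5 of the 10 members rose, namely Gpx3, Gpx4, Gsta4, Gstm1 and Cat, 1 fell, Mt1, and 4 were not called. A gene was called where limma's moderated test, adjusted by Benjamini-Hochberg over all 15300 probesets, gave p under 0.05. Over all probesets 11.9% were called higher and 7.18% lower in that comparison. The same 5 members were higher at 25 than at 2 months, where 10.5% of all probesets were called higher, 6.95% were called lower and 0 members were. From 11 to 25 months 0 members were called by limma, beside 0.0588% of probesets called higher and 0.0915% lower; 1 member, Sod1, had an unadjusted p under 0.05, as did 10.4% of all probesets, and 1 member, again Sod1, passed the study's one-way test followed by Tukey's test.

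The median member change was 0.15 on the log2 scale for 11 against 2 months, beside -0.02 over all probesets, -0.01 beside 0.00 for 25 against 11 months and 0.08 beside -0.01 for 25 against 2 months. Of the 10 members 9 were in the brightest quartile of the table, and that quartile had a median change of 0.09 for 11 against 2 months, -0.03 for 25 against 11 months and 0.07 for 25 against 2 months. Arrays in 3 members, Gpx3, Gsta4 and Gstm1, did not overlap between 2 and 11 months, all 6 older arrays lying above all 6 younger ones. The same 3 members did not overlap between 2 and 25 months. Over all probesets 4.05% and 4.29% were separated in this way and direction, and 0.34% were between 11 and 25 months, where 0 members were. By the moderated F test over the 3 ages 6 members were called, beside 19.2% of all probesets: Gpx3, Gpx4, Gsta4, Gstm1, Sod1 and Cat. The comparisons with 2 months share the same 6 young arrays, and in whole muscle fewer cells of a type and less RNA per cell cannot be told apart.

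**Figure D1:**
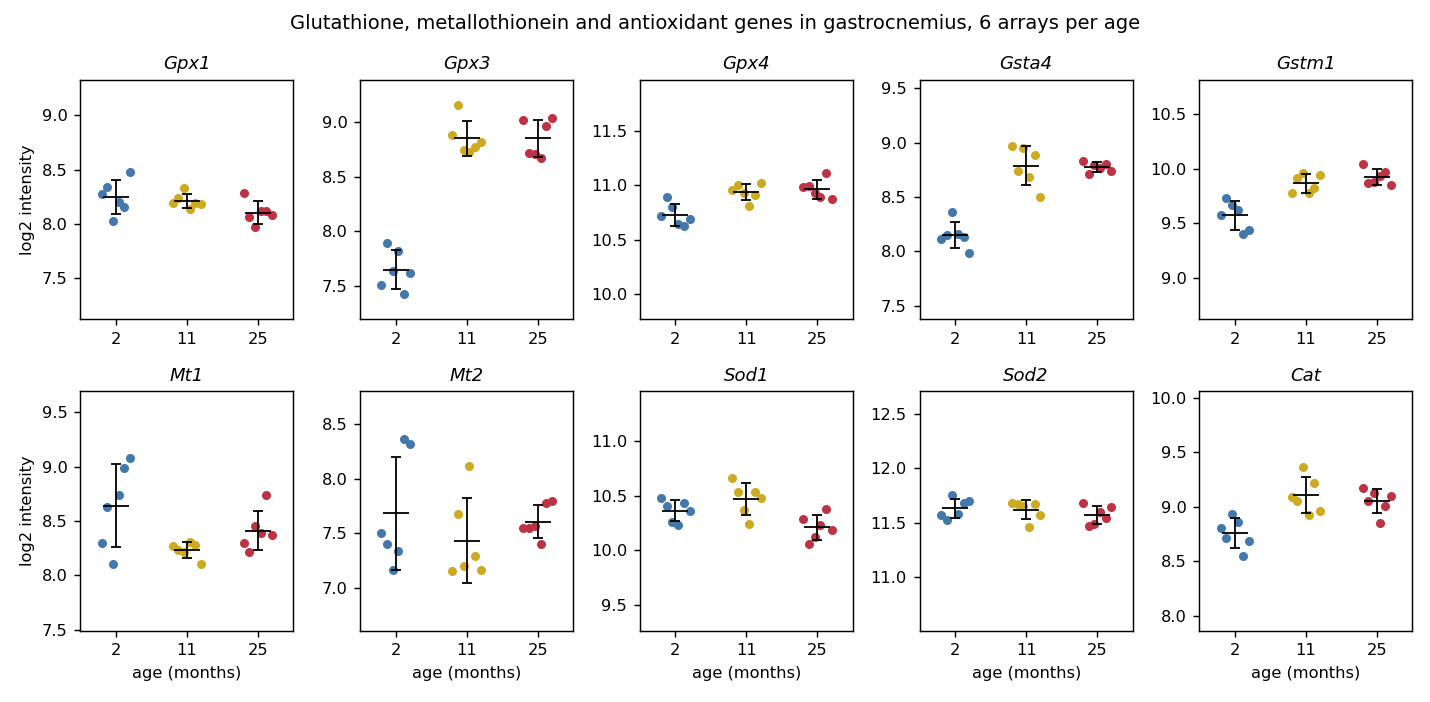
Log2 intensity of the 10 members (vertical axes, each spanning the same number of log2 units) against age in months, with 1 point per array and bars for the mean and SD of 6 arrays. The 2-month points of Gpx3, Gsta4 and Gstm1 lie below all older points, and the Mt1 points spread over 0.97 log2 units at 2 months and 0.21 at 11 months.

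Among the glutathione peroxidases, Gpx3, the secreted selenoenzyme of plasma and extracellular fluid, changed most. Its log2 intensity was 7.42 to 7.89 at 2 months (median 7.62), 8.73 to 9.16 at 11 months (median 8.79) and 8.67 to 9.04 at 25 months (median 8.84). Every adult and aged array was above every young one, and the adult and aged arrays overlapped. The rise from 2 to 11 months was 2.31-fold (log2 change 1.21, SE 0.09, 95% interval 1.02 to 1.40, limma adjusted p = 6.38e-08). At 25 months the level was 2.31-fold that at 2 months (adjusted p = 4.21e-08), and the change from 11 to 25 months was 0.00 (95% interval -0.19 to 0.19, adjusted p = 0.999).

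Gpx4, which reduces phospholipid hydroperoxides within membranes and guards cells against ferroptosis, was 10.63 to 10.90 at 2 months (median 10.71), 10.81 to 11.02 at 11 months (median 10.94) and 10.88 to 11.11 at 25 months (median 10.96). The ages overlapped, with 5 of the 6 arrays at 11 months above all young arrays. Its rise was 1.15-fold at 11 months (log2 change 0.21, SE 0.05, adjusted p = 0.0127) and 1.18-fold at 25 months against 2 months (adjusted p = 0.00497). The first of these calls was lost when the arrays were quantile normalized again, the change then being 0.12 with an adjusted p of 0.122, and with the array signal range as a covariate (adjusted p = 0.0624). Both calls were lost without the 3 arrays of narrowest signal range (adjusted p = 0.0579 and 0.0644).

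Gpx1, the general cytosolic peroxidase, lay between 8.03 and 8.48 at 2 months (median 8.24), 8.14 and 8.33 at 11 months (median 8.19) and 7.97 and 8.29 at 25 months (median 8.10), and the ages overlapped. Its changes were -0.03 for 11 against 2 months (95% interval -0.17 to 0.10), -0.11 for 25 against 11 months (-0.25 to 0.03) and -0.14 for 25 against 2 months (-0.28 to -0.01), none of them called over all probesets (adjusted p = 0.724, 0.594 and 0.15). The last passed in 2 other settings, a further quantile normalization (adjusted p = 0.0476) and the fit without replicate 3 at 2 months (0.04). Of the 4 other peroxidase genes measured, 0 rose. Gpx2 and Gpx6, named here outside the rule, were dim, where folds may be understated. Their mean log2 intensities at 2, 11 and 25 months were 5.10, 5.08 and 5.11 for Gpx2 and 4.86, 4.78 and 4.86 for Gpx6. Gpx7, a peroxidase of the endoplasmic reticulum, fell by 0.23 on the log2 scale at 11 months (SE 0.07, adjusted p = 0.0201) and by 0.33 at 25 months against 2 months (adjusted p = 0.00131). Gpx8, its membrane-bound relative there, fell by 0.33 at 25 months (SE 0.07, adjusted p = 0.00258), with all aged arrays below all young ones.

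Both transferases rose. Gsta4, an alpha-class enzyme that conjugates the lipid aldehyde hydroxynonenal, was 7.99 to 8.36 at 2 months (median 8.14), 8.50 to 8.96 at 11 months (median 8.81) and 8.71 to 8.83 at 25 months (median 8.78). No young array reached an adult or aged one, and the aged arrays were the closest together, with an SD of 0.04 against 0.18 at 11 months. Gsta4 was 1.56-fold higher at 11 months than at 2 months (log2 change 0.64, SE 0.07, adjusted p = 9.51e-06) and 1.54-fold higher at 25 months (adjusted p = 4.93e-06), and -0.01 apart between 11 and 25 months (95% interval -0.16 to 0.14).

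Gstm1, a mu-class transferase, was 9.40 to 9.73 at 2 months (median 9.60), 9.77 to 9.96 at 11 months (median 9.87) and 9.85 to 10.04 at 25 months (median 9.91). Again no young array overlapped an older one. It was 1.23-fold higher at 11 months (log2 change 0.29, SE 0.06, adjusted p = 0.00213) and 1.28-fold higher at 25 months than at 2 months (log2 change 0.35, adjusted p = 0.000317). The mu-class genes are close in sequence, so hybridization of Gstm1 probes with messages of its neighbours was not tested.

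Of 17 further glutathione transferase genes measured, 8 rose and 0 fell at 11 months against 2 months, and 8 rose and 0 fell at 25 months against 2 months; 0 were called from 11 to 25 months, with 4 at an unadjusted p under 0.05. Over all probesets 11.9% were called higher at 11 months and 10.5% at 25 months, each against 2 months. With Gsta4 and Gstm1 included, the median change of the 19 was 0.28 at 11 months against -0.02 over all probesets. Mgst1, a membrane-bound transferase and peroxidase, had mean log2 intensities of 7.75 ± 0.26, 8.70 ± 0.20 and 8.44 ± 0.26 at 2, 11 and 25 months (SD, n = 6), and rose 1.93-fold by 11 months (adjusted p = 4.91e-05) and 1.61-fold by 25 months (adjusted p = 0.00072). Gstm2 rose 1.50-fold (adjusted p = 0.000652) and 1.70-fold (adjusted p = 2.62e-05) in the same comparisons. Gstz1, an enzyme of tyrosine breakdown, rose 1.40-fold by 11 months (adjusted p = 0.000122), and Gstm7 rose 1.36-fold by 25 months (adjusted p = 0.000496). With the array signal range as a covariate, 4 of the 17 were called higher and 0 lower at 11 months. In that setting 6 were called higher and 1 lower at 25 months against 2 months.

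**Figure D2:**
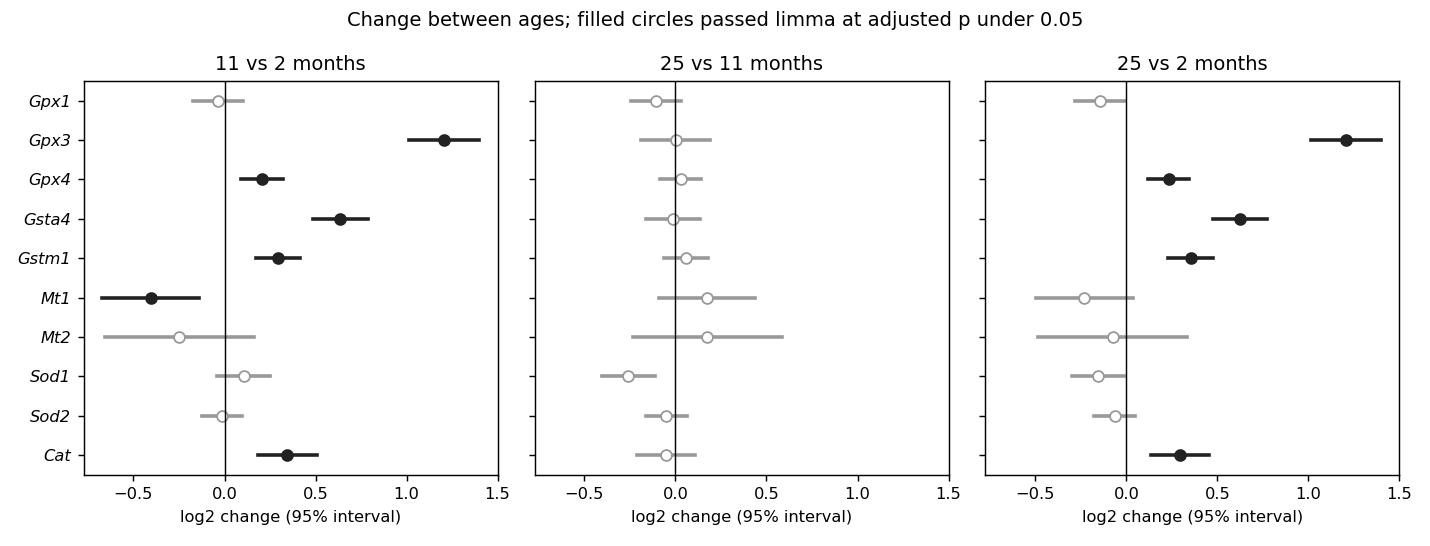
Log2 change of each member (horizontal axis) with its 95% interval from limma for 11 against 2, 25 against 11 and 25 against 2 months, filled where adjusted p was under 0.05. Gpx3 at 1.21 and Gsta4 at 0.64 lie farthest to the right in the first panel, Mt1 at -0.40 lies farthest to the left, and 0 circles are filled in the middle panel.

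The metallothioneins had the widest spread between young mice, over 0.97 log2 units for Mt1, more than that for Mt2 and at most 0.47 for any other member. Mt1 at 2 months ran from 8.11 to 9.08 (median 8.68), with 8.30, 8.63, 8.11, 8.74, 8.99 and 9.08 in replicates 1 to 6. At 11 months it ran from 8.10 to 8.31 (median 8.25) and at 25 months from 8.21 to 8.74 (median 8.38). The SD of the 6 arrays was 0.38, 0.07 and 0.18, and 4 of the 6 young arrays were above all adult ones while the rest overlapped them.

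Mt1 fell by 0.40 on the log2 scale from 2 to 11 months (SE 0.13, 95% interval -0.67 to -0.14, 1.32-fold lower, limma adjusted p = 0.0325). The call was lost with the array signal range as a covariate (change -0.21, adjusted p = 0.435), and without the 3 arrays of narrowest range (-0.27, adjusted p = 0.157). It was also lost in the study's one-way test (adjusted p = 0.132), in a fit of those 2 ages alone (0.0576), and when any of replicates 3, 5 and 6 at 11 months or 2, 4, 5 and 6 at 2 months was left out (0.0536 to 0.0803). The moderated F test did not call Mt1 (adjusted p = 0.0728). Its changes for 25 against 11 months, 0.17 (adjusted p = 0.669), and for 25 against 2 months, -0.23 (adjusted p = 0.237), were not called, though the latter passed without replicate 3 at 2 months (-0.34, adjusted p = 0.0378).

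Mt2, whose gene neighbours Mt1, was 7.16 to 8.36 at 2 months (median 7.45), 7.16 to 8.11 at 11 months (median 7.24) and 7.40 to 7.80 at 25 months (median 7.56). Replicates 5 and 6 at 2 months, at 8.36 and 8.32, and replicate 4 at 11 months, at 8.11, stood above the others, and every age overlapped the rest. No change was called: -0.25 (95% interval -0.66 to 0.16, adjusted p = 0.363), 0.17 (-0.23 to 0.58, adjusted p = 0.787) and -0.07 (-0.48 to 0.33, adjusted p = 0.839) for 11 against 2, 25 against 11 and 25 against 2 months. Without replicate 4 at 11 months, the array with raised skin genes, the first 2 were -0.39 (adjusted p = 0.138) and 0.31 (adjusted p = 0.582). Intervals this wide leave changes of either sign possible for Mt2.

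Replicates 5 and 6 at 2 months were the highest of all 18 arrays for both Mt1 and Mt2. Within the 6 arrays of an age, Pearson's r between the genes was 0.83 at 2 months (exact permutation p = 0.0736, Benjamini-Hochberg p = 0.221 over the 3 ages), 0.52 at 11 months (exact p = 0.297, Benjamini-Hochberg p = 0.311) and 0.50 at 25 months (exact p = 0.311, Benjamini-Hochberg p = 0.311), all two-sided. Spearman's rho was 0.71, 0.54 and 0.37 in the same order (exact permutation p = 0.136, 0.297 and 0.497; Benjamini-Hochberg p = 0.408, 0.446 and 0.497). Without the 2 arrays farthest from the median of Mt1, r was 0.65, -0.30 and -0.070, so the values at 11 and 25 months rested on those arrays.

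**Figure D3:**
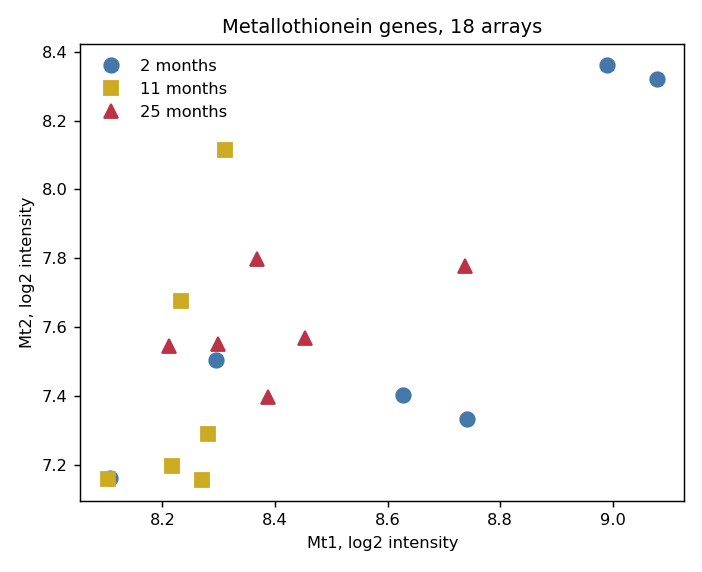
Mt2 (vertical axis) against Mt1 (horizontal axis), both in log2 intensity, with 1 point per array coloured and shaped by age. Replicates 5 and 6 at 2 months lie at the upper right, at 8.99 and 9.08 for Mt1 and 8.36 and 8.32 for Mt2, and the 11-month points lie in a narrow band of Mt1 between 8.10 and 8.31.

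Other genes of metal handling gave few calls. Of the 16 measured besides Mt1 and Mt2, 0 were called in either direction for 11 against 2 months, with 2 at an unadjusted p under 0.05, and 0 for 25 against 11 months, also with 2. At 25 against 2 months Slc39a13, a zinc transporter of intracellular membranes, fell by 0.20 (SE 0.06, adjusted p = 0.0359), a call that was lost with the array signal range as a covariate and in the study's one-way test with Tukey's test. Among 12 genes known to respond to glucocorticoids, which also induce metallothioneins, 2 fell at 11 months: Ddit4, an inhibitor of mTOR signalling, by 0.52 (adjusted p = 0.00593), and Fkbp5, a chaperone of the glucocorticoid receptor, by 0.44 (adjusted p = 0.0142). At 25 months both were below their 2-month level, by 0.57 for Fkbp5 (adjusted p = 0.00208) and 0.44 for Ddit4 (adjusted p = 0.0149). The stress-induced cell cycle inhibitor Cdkn1a rose 1.56-fold by 25 months (adjusted p = 0.00133). With the array signal range as a covariate, 0 of the 12 were called at 11 months. Of the 12, 5 had a change above 0 at 11 months. Over all probesets 7.18% were called lower at 11 months and 6.95% at 25 months, each against 2 months. Any part of glucocorticoids in the Mt1 change was not tested.

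Cat, the peroxisomal enzyme that splits hydrogen peroxide, was 8.55 to 8.94 at 2 months (median 8.76), 8.92 to 9.37 at 11 months (median 9.07) and 8.85 to 9.17 at 25 months (median 9.08). The ages overlapped slightly, with 5 of the 6 arrays at 11 months above all those at 2 months. Cat was 1.27-fold higher at 11 months (log2 change 0.35, SE 0.08, adjusted p = 0.00441) and 1.23-fold higher at 25 months than at 2 months (log2 change 0.29, adjusted p = 0.011). The first call was lost with the array signal range as a covariate (change 0.25, adjusted p = 0.0923).

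Sod1, the copper and zinc dismutase of the cytosol, was 10.23 to 10.48 at 2 months (median 10.39), 10.24 to 10.66 at 11 months (median 10.50) and 10.06 to 10.38 at 25 months (median 10.21). At 25 months 4 of the 6 arrays were below all those at 11 months. It had the only change between 11 and 25 months with an unadjusted p under 0.05, -0.26 on the log2 scale (SE 0.07, 95% interval -0.40 to -0.11), and it was not called over all probesets (limma adjusted p = 0.153). It was called with array weights (adjusted p = 0.0198) and by the study's one-way test (adjusted p = 0.0472) with Tukey's p of 0.00627 for this pair. The second Sod1 probeset, whose own 18 values followed the first with r = 0.92, gave -0.27 (limma adjusted p = 0.14, Tukey p = 0.00474). Whether the 2 probesets read the same locus was not examined, so the second may not be a separate reading of the gene. Against 2 months the change at 25 months was -0.15 (adjusted p = 0.137), and that at 11 months was 0.10 (adjusted p = 0.277).

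Sod2, the manganese dismutase of mitochondria, was 11.53 to 11.75 at 2 months (median 11.63), 11.46 to 11.69 at 11 months (median 11.66) and 11.47 to 11.68 at 25 months (median 11.57). Its ages overlapped and its changes of -0.01, -0.05 and -0.06 were not called (adjusted p = 0.868, 0.774 and 0.457 for 11 against 2, 25 against 11 and 25 against 2 months). The 95% intervals reached from -0.18 at the lowest to 0.10 at the highest. Sod3, the extracellular dismutase, and Ccs, the copper chaperone of Sod1, were the 2 other genes of the list, named here outside the rule, and 0 of them were called in any comparison. Their change from 11 to 25 months was -0.07 for Sod3 (adjusted p = 0.772) and -0.12 for Ccs (adjusted p = 0.555).

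Between 11 and 25 months the 95% interval of 7 members, Gpx1, Gpx3, Gpx4, Gsta4, Gstm1, Sod2 and Cat, lay within 0.25 log2 units of 0. Mt1, Mt2 and Sod1 were the exceptions. This limit of 0.25 was wider than the called rise of Gpx4 at 11 months, 0.21. By limma's calls 2 months was below both other ages for Gpx3, Gpx4, Gsta4, Gstm1 and Cat, with 11 and 25 months not distinguished. Both calls of Gpx4 and the 11-month call of Cat were lost in other settings, as given beside those genes.

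The wider redox system was read from lists of genes around the members. Over 9 pathway lists, chosen with earlier results of these data known, 118 genes that are not members were measured. At 11 against 2 months 26 of them rose (22.0%) and 6 fell (5.08%), at 25 against 2 months 21 rose (17.8%) and 12 fell (10.2%), and from 11 to 25 months 0 were called in either direction. Over all probesets 11.9% were called higher and 7.18% lower at 11 against 2 months, and 10.5% and 6.95% at 25 against 2 months. The same shares stand beside the counts of the lists and markers below. The median change of the 118 was 0.05, 0.01 and -0.04 in that order, beside -0.02, -0.01 and 0.00 over all probesets. With the array signal range as a covariate, 9 rose and 1 fell at 11 months: Gstm2, Gstt1 (named after its values were seen), Gstz1, Mgst1, Oplah, Abcc1, Nfe2l1, Sqstm1 and Nqo1 were higher and Keap1 was lower. In that setting 959 of all 15300 probesets were called.

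Nrf2 and its regulators and targets split in direction. Of 22 measured, 7 rose and 3 fell at 11 months, and 6 rose and 4 fell at 25 months, each against 2 months. Nqo1, a quinone reductase often used to read Nrf2 activity, was 6.88 ± 0.50, 7.92 ± 0.14 and 7.95 ± 0.24 at 2, 11 and 25 months (SD, n = 6), a 2.05-fold rise by 11 months (log2 change 1.04, SE 0.17, adjusted p = 0.000371) and 2.10-fold by 25 months (adjusted p = 0.00018). Sqstm1, an autophagy adaptor that binds Keap1, rose by 0.32 and 0.33 on the log2 scale (adjusted p = 0.000705 and 0.000467), and Nfe2l1, a relative of Nrf2 that drives proteasome genes, rose 1.24-fold and 1.28-fold (adjusted p = 0.0018 and 0.000416). Keap1, which directs Nrf2 to degradation, fell by 0.18 and 0.21 (adjusted p = 0.00659 and 0.00172), with 2-month arrays all above the older ones. The small Maf partner Maff fell by 0.22 in both (adjusted p = 0.0331 and 0.0333) and Mafg by 0.23 at 11 months (adjusted p = 0.0374), while Ugdh, which makes UDP-glucuronate, fell by 0.20 at 25 months (adjusted p = 0.00809). Nfe2l2 itself, named after its values were seen, was 0.15 at 11 months (adjusted p = 0.0653) and rose by 0.23 by 25 months (adjusted p = 0.00668).

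In glutathione synthesis and turnover 4 of 14 genes rose and 0 fell at 11 months, and 2 rose and 1 fell at 25 months. With the array signal range as a covariate, 2 rose at 11 months and 1 at 25 months. With a further quantile normalization, and by the one-way test with Tukey's test, 3 rose at 11 months and 1 at 25 months. Abcc1, which exports glutathione conjugates, rose 1.24-fold in both comparisons (adjusted p = 0.000425 and 0.000291). Oplah, which returns oxoproline to glutamate, rose 1.26-fold (adjusted p = 0.00113) and Pgd, a source of NADPH in the pentose phosphate pathway, by 0.26 on the log2 scale (adjusted p = 0.00426) by 11 months. Gsr, the reductase that regenerates glutathione, rose 1.15-fold by 25 months (adjusted p = 0.0324), when Ggct, an enzyme of glutathione breakdown, fell by 0.30 (adjusted p = 0.00302).

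Peroxiredoxin, thioredoxin and glutaredoxin genes gave 4 rises and 0 falls among 20 at 11 months and 3 rises and 2 falls at 25 months. Nnt, the mitochondrial transhydrogenase that supplies NADPH, rose 1.39-fold and 1.55-fold (adjusted p = 0.0132 and 0.00171); the C57BL/6J substrain is known to carry a deletion in this gene, and which exons the probes read was not examined. The mitochondrial peroxidase Prdx3 rose 1.16-fold by 11 months (adjusted p = 0.0314). Msrb3, a methionine sulfoxide reductase, rose 1.14-fold and 1.17-fold (adjusted p = 0.0267 and 0.00927), and the thioredoxin-like Txnl1 1.17-fold by 25 months (adjusted p = 0.00485). Msrb2 fell by 0.27 (adjusted p = 0.00829) and Glrx5, a mitochondrial protein of iron-sulfur cluster assembly, by 0.28 (adjusted p = 0.00402) at 25 months. For 11 against 2 months 0 of the 20 were called with the signal range as a covariate.

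Of 15 other selenoproteins and genes of selenoprotein synthesis, the machinery that Gpx1, Gpx3 and Gpx4 need for their selenocysteine, 3 rose and 0 fell at 11 months. Selenow, a small selenoprotein abundant in muscle, rose 1.19-fold (adjusted p = 0.0163), Selenom 1.15-fold (adjusted p = 0.0292) and Selenof 1.18-fold (adjusted p = 0.0308). At 25 against 2 months Selenof alone of the 15 was called (1.21-fold, adjusted p = 0.0128). With the covariate 0 were called at 11 months.

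**Figure D4:**
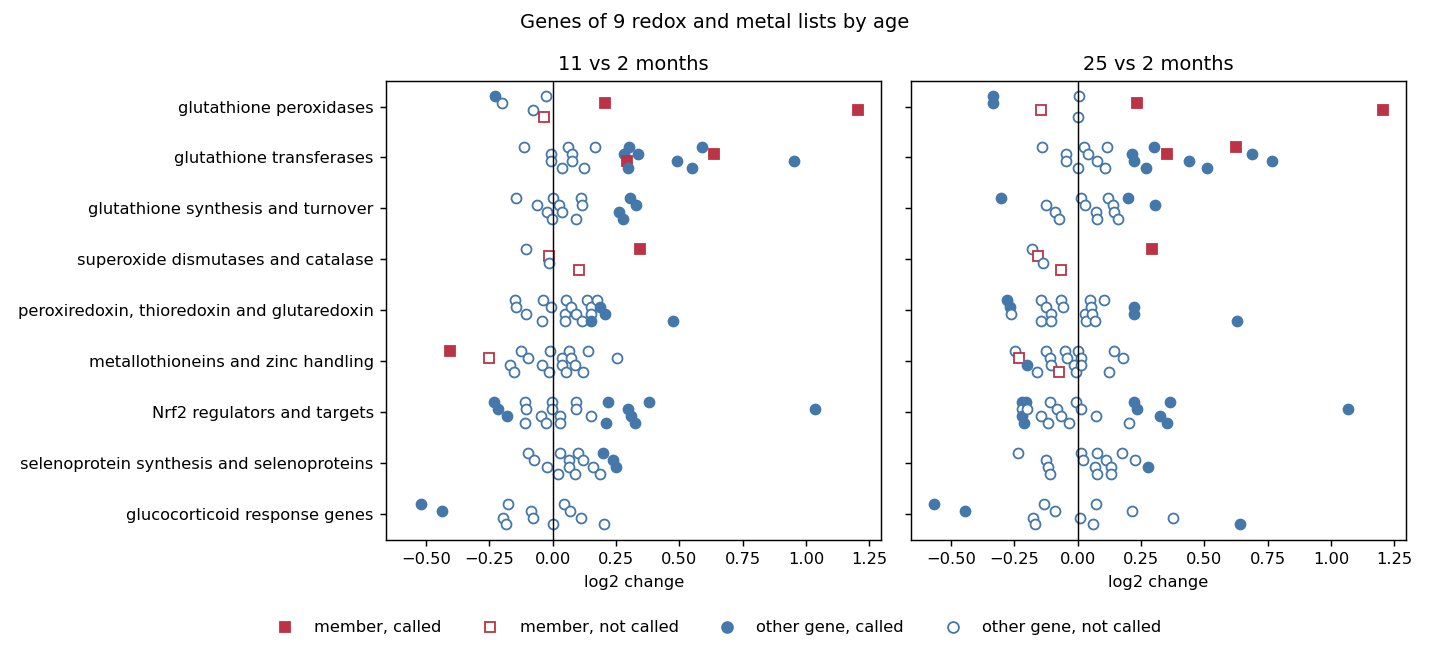
Log2 change of each measured gene (horizontal axis) in 9 redox and metal lists (rows) for 11 against 2 months and 25 against 2 months, with members as squares, other genes as circles and called genes filled. Filled symbols of the glutathione transferase row all lie to the right of 0 in both panels, and the Nrf2 row has filled circles on both sides with Nqo1 farthest to the right.

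Markers of other cell types also changed with age. Of 11 adipocyte markers, 4 rose by 11 months, Adipoq, Cidec, Lep and Scd1, named after their values were seen; with the array signal range as a covariate the count was 1, and by the study's one-way test with Tukey's test 1. In limma 0 were called at 25 against 2 months or at 25 against 11 months, where 6 had an unadjusted p under 0.05. Their mean log2 intensity ranged over the arrays from 6.90 to 7.33 at 2 months, 7.02 to 7.85 at 11 months and 6.92 to 7.57 at 25 months. Gpx3, which fat also expresses, was 2.31-fold higher than at 2 months at both later ages. Adipoq, the defining adipokine, had means of 6.09 ± 0.40, 6.75 ± 0.53 and 6.17 ± 0.30 (SD, n = 6), and an array of this kind has no zero level.

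Macrophage markers gave 2 rises among 9 at 11 months and 1 at 25 months against 2 months, their mean level ranging from 6.33 to 6.87 at 2 months, 6.66 to 6.88 at 11 months and 6.59 to 6.86 at 25 months. With the array signal range as a covariate these counts were 0 and 1. By the one-way test with Tukey's test both were 0. Tenocyte markers fell, 5 of 7 at 11 months and 6 of 7 at 25 months, with mean levels of 7.44 to 7.87, 6.96 to 7.25 and 6.67 to 7.00. Of 11 fibro-adipogenic progenitor markers 1 rose and 3 fell at 11 against 2 months, 2 fell at 25 against 11 months (7 by the one-way test with Tukey's test) and 7 fell at 25 against 2 months, with levels of 7.77 to 8.10, 7.81 to 8.03 and 7.57 to 7.79. Gpx7 was called lower at both later ages against 2 months, and Gpx8 at 25 months. Slow-fibre markers were not called at 11 months and rose in 5 of 6 at 25 against 2 months (1 of 6 by the one-way test with Tukey's test), with levels of 9.25 to 10.48, 9.84 to 10.48 and 10.03 to 10.95. Of 12 endothelial markers 1 rose and 2 fell at 11 against 2 months and 3 fell at 25 against 2 months, with levels of 7.96 to 8.01, 7.88 to 8.08 and 7.82 to 7.96. Of 7 Schwann cell markers 1 fell, and of 12 skin and hair genes 1 rose, in each comparison with 2 months. Among the 10 skeletal muscle markers 1 rose and 2 fell at 11 months and 1 fell at 25 months, each against 2 months. Of 3 erythroid genes 0 were called in any comparison. The part of these cell types in the members' changes was not tested.

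**Figure D5:**
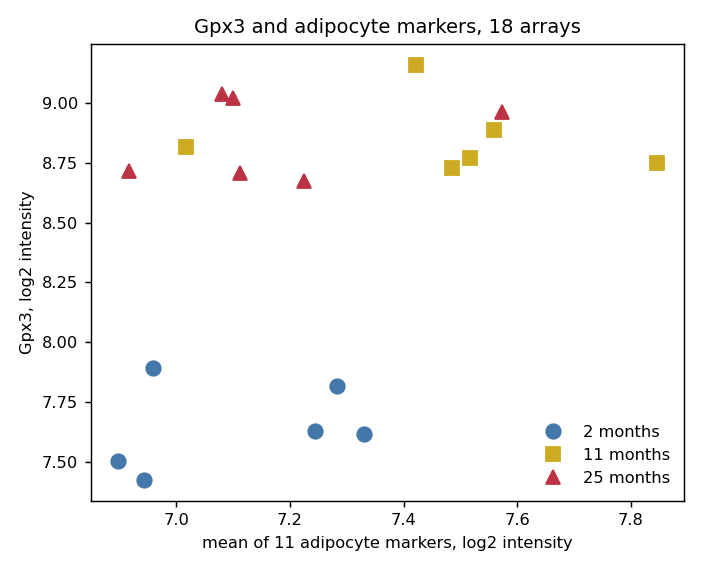
Gpx3 (vertical axis) against the mean of 11 adipocyte markers (horizontal axis), both in log2 intensity, with 1 point per array and ages by colour and shape. All 12 arrays of 11 and 25 months lie at or above 8.67 for Gpx3 and all 6 of 2 months at or below 7.89, and the ages overlap along the adipocyte axis.

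For each member called in some comparison, the 3 genes with the highest Pearson's r of log2 intensity over the 18 arrays are given as a description of shared pattern. This r includes the difference between ages, and all values of an array share its scaling. An r taken after removing each age's mean uses the same arrays that picked the genes, so it is not a separate test. For Gpx3 they were Nfkbib (0.95), Aldh1a1 (0.94) and Cirbp (0.94). Aldh1a1, a retinaldehyde dehydrogenase, had means of 9.41, 10.62 and 10.60 at 2, 11 and 25 months, and after each age's mean was taken away its r with Gpx3 was 0.14. For Gsta4 they were Dpyd (0.96), Atp9a (0.95) and Pde8a (0.95), for Gstm1 Acsl6 (0.93), Pcif1 (0.92) and Tbc1d17 (0.92), and for Gpx4 Naxe (0.93), Art1 (0.88) and Abca7 (0.87). Cat was most like Ech1 (0.91), Ephx2 (0.91) and Acadm (0.91), which encode lipid-metabolizing enzymes, with 0.80, 0.80 and 0.78 within ages. Mt1 was most like Cdca5 (0.92), Inpp5d (0.86) and Prickle3 (0.86), with 0.89, 0.79 and 0.81 within ages. Cdca5 and Inpp5d were dimmer than the median probeset. Their means at 2, 11 and 25 months were 5.25, 5.08 and 5.15 for Cdca5 and 6.11, 5.96 and 6.04 for Inpp5d. The part of the array signal range in these r was not tested.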

How the data were processed

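Gastrocnemius RNA of 18 male mice, 6 per age, was hybridised to 18 arrays. Each deposited value is the linear intensity of 1 probeset on 1 array. It was made by the authors with RMA in Affymetrix Expression Console (version 1.2.1) against build mm8, as far as the submitters' processing notes list tools, and GeneSpring GX 14.9 is named in the series text. A filter behind the 15300 probesets is not given in the sources used here, nor are detection calls, scan dates or batches. RMA is known to compress differences among dim probesets, so folds there may be understated. Of the probesets, 13592 had 1 gene symbol by the platform annotation, 941 had several and 767 none; 13542 matched a RefSeq table by Entrez identifier, which changed 0 symbols. That table is on another build, so gene positions are not given.

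Log2 was taken and limma 3.58.1 in R 4.3.3 was fitted with 1 mean per age over all 18 arrays. The 3 differences between ages and a moderated F statistic were tested, with Benjamini-Hochberg adjustment over all probesets and a threshold of 0.05. The labels call the samples biological replicates; the number of arrays limits the precision. Summaries used Python 3.11.15, numpy 2.4.6, pandas 2.3.3, scipy 1.17.1 and matplotlib 3.10.9. The method was tested on simulated data. The simulated noise was independent between probesets and held no effect shared by an array, so differences in array signal range were not covered. Members, lists, tests and settings were chosen with earlier results of these data known. Text names all members, up to 3 called genes per pathway list and direction by smallest adjusted p, and 3 genes of most alike pattern per called member; others are marked. The authors' design of a one-way test with Tukey's test was run as an alternative, its one-way p adjusted and Tukey's p not. Protein sequences were not used here.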

Additional observations from a re-analysis of the deposited data

Results flagged for a closer look

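Of 30 sets of 6 arrays, a member at an age, 1 had an extreme array by Dixon's criterion for 6 values. Gpx3 in replicate 2 at 11 months was 9.16, and the nearest of the other 5 arrays was 8.89, a gap of 0.63 of the whole range. Chance flags about 1 in 20 such sets. Left out 1 at a time, no array moved the rise of Gpx3 from 2 to 11 months outside 1.14 to 1.25 on the log2 scale.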

How the results depend on the processing

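The calls of Gpx3, Gsta4 and Gstm1 against 2 months kept their direction and stayed past the threshold in all 30 other settings tried, with log2 changes at 11 months of 1.13 to 1.30, 0.55 to 0.69 and 0.20 to 0.33. Members called numbered 6 for 11 against 2 months and 3 with the array signal range as a covariate; for 25 against 11 months the 0 became 1 (Sod1) with array weights and 1 with the one-way test and Tukey's test. Probesets called for 11 against 2 months, 2919, were 1256 at a threshold of 0.01, 959 with the covariate and 1555 without the 3 arrays of narrowest range, a setting chosen after seeing the data. For 25 against 11 months, 23 became 3 at 0.01, 8 with 1 probeset per gene, 37 with the covariate, 185 with array weights, 461 with Tukey's test, 45 with only those ages fitted and 6 with a replicate block. For 25 against 2 months, 2666 became 1419 at 0.01. Leaving out each array in turn gave 5 to 6, 0 to 0 and 5 to 7 members, 5 to 7 members by the F test, and 1895 to 3787, 3 to 33 and 2081 to 3025 probesets for 11 against 2, 25 against 11 and 25 against 2 months. The lowest count of the first comparison, 1895, came without replicate 5 at 11 months, and counts of 3 to 12 in the second came on leaving out any 1 of the replicates at 11 months, replicate 3 at 2 months or replicate 2, 3, 4 or 6 at 25 months. The correlation of Mt1 with Mt2 became -0.30 at 11 months and -0.070 at 25 months without the 2 arrays farthest from the median of Mt1. For deviations from age means, same-numbered samples of different ages had a median r of -0.03 (range -0.33 to 0.42, 18 pairs). Samples of different ages and numbers had 0.01 (-0.45 to 0.47, 90 pairs). An r over 0.1 was found in 7 same-numbered and 24 other pairs. Whether same-numbered samples shared a batch cannot be told from these values. The replicate block left the members called at 6, 0 and 5. At a threshold of 0.01 the calls of Gpx4 and Mt1 at 11 against 2 months (adjusted p = 0.0127 and 0.0325) and of Cat at 25 against 2 months (0.011) were also lost. Other single-member calls that changed are given beside their genes, and for Sod1 at 25 against 2 months the adjusted p was 0.0255 with a further quantile normalization and 0.0497 with array weights. Why these counts moved was not tested, apart from the stricter threshold and the smaller numbers of arrays or probesets.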
